A study of Macaca mulatta with 2 samples.

Results

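The 111 cells described here are circulating T cells in which the RNA of the chemokine receptor CCR4 was read. They were chosen by their UMI counts (unique molecular identifiers, each standing for 1 captured RNA molecule) from the 7601 kept cells of 1 sample. A cell had to hold at least 1 UMI of *CCR4* and at least 1 of the CD3 genes *CD3D*, *CD3E* or *CD3G*, and no UMI of *FOXP3*, *CCR6*, *CCR9* or *CXCL13*, genes that mark regulatory, Th17-like, CCR9+ helper-like and follicular helper-like T cells. The gated cells were 1.46% of the kept cells and 1.49% of the 7445 CD3+ cells among them (95% exact Clopper-Pearson interval 1.23 to 1.79%). The main comparison was with the 7265 CD3+ cells that held no *CCR4* UMI.

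The study asked how heterogeneous circulating double-positive (DP) T cells are, which carry both CD4 and CD8. The blood came from 1 untreated rhesus monkey aged 6 years, and magnetic beads selected first CD4+ and then CD8+ cells. The same cells gave a 5′ RNA library and a library of feature barcodes (FB), antibody tags for surface CD4 and CD8. With 1 animal and 1 run no comparison between cells has a replicate error, so no test was made, and every interval covers counting error alone.

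CCR4 is the receptor for the chemokines CCL17 and CCL22, which guide T cells towards skin and other inflamed tissue. It is known from type 2 helper (Th2) cells, the T cells that GATA3 programs, that IL-4 drives through the IL-4 receptor and STAT6, and that make IL-4, IL-5 and IL-13. Regulatory, Th17 and memory T cells can carry CCR4 too, so the receptor alone does not name a Th2 cell.

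Most gated cells sat at the lower limit of the rule. In 90 of them there was 1 *CCR4* UMI, in 18 there were 2, in 2 there were 3 and in 1 there were 5, which makes 137 UMIs in all. *CCR4* (Mmul_10 chromosome 2, 14756347 to 14759719) was read in 180 CD3+ cells, and the 4 other genes of the rule removed 69 of these. Of the 69 cells, 37 held a UMI of *CCR6*, 19 of *CCR9*, 17 of *CXCL13* and 11 of *FOXP3*, and 12 held more than 1 of the 4. These values chose the cells and are given as a description.

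Deeper cells passed the rule more often. The gated cells had a median of 4499 UMIs per cell (quartiles 3814 to 5342), 1409 genes and 4.09% mitochondrial UMIs, whereas the CCR4-negative CD3+ cells had a median of 3625 UMIs, 1281 genes and 3.99%. In 4 equal groups of CD3+ cells by depth, from shallow to deep, *CCR4* was read in 1.40%, 1.07%, 2.31% and 4.89% of cells. With each cell thinned to 2000 UMIs it was read in 1.33% of CD3+ cells (1.07 to 1.62%) instead of 2.42%.

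*CCR4* was unevenly spread over the DP T cells. Among CD3+ cells without a UMI of *GZMB*, *GZMK*, *PRF1*, *NKG7* or *CCL5*, called non-cytotoxic here, 5.55% held *CCR4* (4.70 to 6.51%). Among CD3+ cells with 10 or more UMIs of these 5 genes, 0.490% did (0.274 to 0.807%), and thinning to 2000 UMIs gave 3.05% and 0.203%. The 86 cells with B cell genes and no CD3 UMI, which should lack the receptor, held it in 1 case (1.16%, 0.0294 to 6.31%). Their median depth was 4138 UMIs, against 4099 for the non-cytotoxic and 3341 for the cytotoxic cells. The interval of these 86 cells contains both 5.55% and 0.490%, so they set neither share apart from background.

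*GATA3* (chromosome 9, 9145130 to 9174939), the master transcription factor of Th2 cells, was at a higher level in the gated cells than in the CCR4-negative groups below. They held 102 *GATA3* UMIs in 48 cells (43.2%, 33.9 to 53.0%), while the CCR4-negative CD3+ cells held 2037 in 1616 cells (22.2%). Levels are given as UMIs per 1000000 gene UMIs of the group (CPM). *GATA3* was at 194 CPM (exact Poisson interval 158 to 236) against 69.0 CPM (66.1 to 72.1), a log2 ratio of 1.49 (1.19 to 1.78). At an equal 2000 UMIs per cell it was read in 29.2% of the gated cells (20.8 to 38.9%), 12.2% of the comparison cells and 1 of 79 B gene cells. *GATA3* was at 75.3 CPM in non-cytotoxic CCR4-negative cells, 72.6 CPM in CCR6+, 71.0 CPM in CXCR3+ and 50.9 CPM in FOXP3+ CCR4-negative cells. The 69 CCR4+ cells that the rule left out had 75.6 CPM (52.3 to 106). By share of cells the latter were closer, with *GATA3* in 39.1% (27.6 to 51.6%) and, after thinning, in 19.7% (10.9 to 31.3%), and these intervals overlap those of the gated cells.

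The excess of *GATA3* lay in cells with several molecules. Cells with 3 or more *GATA3* UMIs made up 13.5% of the gated cells (7.77 to 21.3%), 1.02% of the CCR4-negative CD3+ cells (0.801 to 1.28%) and 1.70% of the non-cytotoxic ones (1.22 to 2.30%). Cells with exactly 1 UMI were 22.5% and 18.0% of the gated and CCR4-negative CD3+ cells, so at that level the groups were alike within counting error. Gated cells with 2 or more *CCR4* UMIs had *GATA3* in 12 of 21 cells (57.1%, 34.0 to 78.2%) and those with 1 in 36 of 90 (40.0%, 29.8 to 50.9%), and these intervals overlap.

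**Figure D1:**
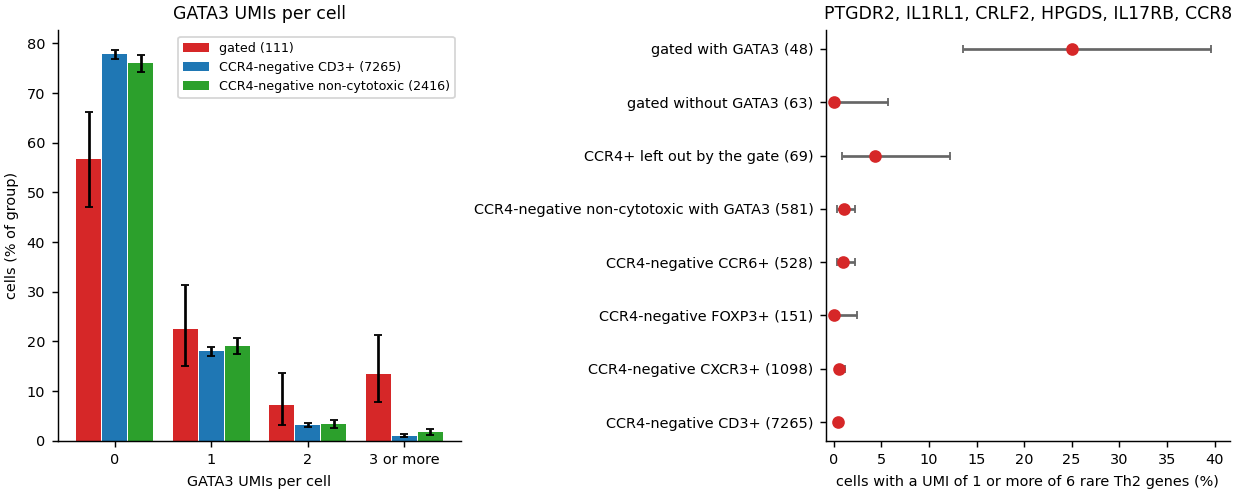
Left, percent of cells in each group (y axis) by the number of GATA3 UMIs in the cell (x axis), with 95% exact intervals; the bar for 3 or more UMIs reaches 13.5% in the gated cells and stays at or below 1.70% in the other groups. Right, percent of cells with a UMI of any of 6 rarely read Th2-associated genes (x axis) chosen after their values were seen, in 8 groups of cells, highest at 12 of 48 gated cells with GATA3 and 0 of 63 gated cells without it.

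*IL4R* (chromosome 20, 25658898 to 25709063), which encodes the IL-4 receptor alpha chain, was higher by a smaller step. It had 100 UMIs in 55 gated cells (49.5%, 39.9 to 59.2%), and its level was 191 CPM against 111 CPM in CCR4-negative CD3+ cells, a log2 ratio of 0.78 (0.48 to 1.07). Against non-cytotoxic cells, at 127 CPM, the log2 ratio was 0.59 (0.28 to 0.88), and against CCR6+ cells, at 145 CPM, it was 0.40 (0.07 to 0.72). B gene cells held *IL4R* in 9.30% of cells (4.10 to 17.5%). *GATA3* and *IL4R* occurred together in 34 gated cells (30.6%, 22.2 to 40.1%) and in 8.91% of the CCR4-negative CD3+ cells (8.26 to 9.58%). Within the gate, *IL4R* was at 276 CPM in cells with *GATA3* and at 115 CPM in cells without it (log2 ratio 1.26, 0.64 to 1.92), and the latter value lies beside the 111 CPM of the comparison cells. Gated cells with *GATA3* were the deeper ones, with a median of 4943 UMIs against 4148, although CPM levels are relative to the total. In 42 gated cells (37.8%, 28.8 to 47.5%) neither gene was read.

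*PTGDR2* (chromosome 14, 13375182 to 13380279) encodes CRTH2, the prostaglandin D2 receptor used to sort Th2 cells. It was read only 3 times in the gated cells, in 3 cells (2.70%, 0.561 to 7.70%), and 8 times in 7 of the 7265 CCR4-negative cells (0.0964%, 0.0387 to 0.198%). A further 5 genes of the Th2-associated list were about as rare, and all 6 were put together after their values had been seen. *IL1RL1* (the IL-33 receptor ST2) had 4 UMIs in 2 gated cells, *CRLF2* (the receptor for the epithelial cytokine TSLP) 4 in 4, *HPGDS* (a prostaglandin D2 synthase) 2 in 2, and *IL17RB* (a receptor for IL-25) and *CCR8* (a chemokine receptor of skin T cells) 1 each. The CCR4-negative CD3+ cells held 10, 9, 0, 8 and 2 UMIs of these 5 genes. The set leaves out other rare genes of the list that were not higher: *CCR3*, *PPARG* and *BHLHE41* had 0 UMIs in the gated cells against 4, 3 and 3, *IRF4* had 2 against 200 (3.81 against 6.78 CPM) and *GFI1* had 2 against 404 (3.81 against 13.7 CPM). The shares that follow therefore describe 6 chosen genes and give no direction for Th2-associated genes as a whole.

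At least 1 of the 6 genes was read in 12 gated cells (10.8%, 5.71 to 18.1%) and in 36 CCR4-negative CD3+ cells (0.496%, 0.347 to 0.685%). Each of the 12 cells also held *GATA3* (12 of 12, 73.5 to 100%), and 11 held *IL4R*, while 36 of the other 99 gated cells held *GATA3* (36.4%). Outside the gate, of the cells with any of the 6, *GATA3* was held by 15 of 36 CCR4-negative CD3+ cells (41.7%). It was held by 5 of 5 such CCR6+ CCR4-negative cells and by 3 of 3 such CCR4+ cells left out by the rule. Among the 63 gated cells without *GATA3* none held any of the 6, which allows a share of up to 5.69%. Among 581 non-cytotoxic CCR4-negative cells with *GATA3*, 6 held 1 of the genes (1.03%, 0.380 to 2.23%), against 12 of the 48 gated cells with *GATA3* (25%, 13.6 to 39.6%). The share was 4.35% (0.906 to 12.2%) in the CCR4+ cells that were left out, 0.947% in CCR6+, 0.546% in CXCR3+ and 0 of 151 in FOXP3+ CCR4-negative cells, which allows up to 1.99%. It was 0 of 86 in B gene cells, which allows up to 3.49%. The 12 cells had a median of 5009.5 UMIs and the other 99 had 4336, a difference in depth whose part in the share was not tested.

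The effector cytokines of Th2 cells were not read in the gated cells. *IL4*, *IL5* and *IL13* had 0 UMIs there, which allows a level of up to 5.72 CPM for each gene (3 UMIs in the group). The CCR4-negative CD3+ cells held 54 UMIs of *IL4* in 52 cells (1.83 CPM), only 1 of them in a non-cytotoxic cell, 4 of *IL5* and 0 of *IL13*. At this depth a count of 0 does not exclude a gated level equal to those. *IL10*, *TNF*, *IL9*, *IL31* and *AREG* were also at 0 in the gated cells. *LTB*, the lymphotoxin beta chain, was the cytokine gene with the most gated UMIs, at 1524 CPM against 943 CPM (log2 ratio 0.69, 0.59 to 0.79), but at 1480.2 CPM in non-cytotoxic cells it showed no step there.

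The label of Th2-like cells thus had *GATA3* and *IL4R* behind it, and *PTGDR2* in 3 cells, while the Th2 cytokine genes were at 0. Of the 14 further Th2-associated genes, 4 were abundant enough to compare (a mean of both groups of at least 10 CPM). Of these 1 was higher and 3 were lower, 0 past 2-fold higher and 1 past 2-fold lower, with a median log2 ratio of -0.35. Against non-cytotoxic cells 3 could be compared, of which 2 were higher and 1 lower, none past 2-fold, with a median of 0.07. The 2-fold limit was set on the ratio of CPM + 10, the scale on which all fold counts and list medians are given. On it 27 of 6593 genes were past 2-fold higher in the gated cells than in CCR4-negative CD3+ cells (0.410%) and 106 were past 2-fold lower (1.61%), and the median log2 ratio of all genes was -0.05. The Th2-associated gene past 2-fold lower was *NFIL3*, with 1 UMI, and *STAT6*, the transducer of IL-4 signals, was at 47.6 CPM against 46.9 CPM.

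**Figure D2:**
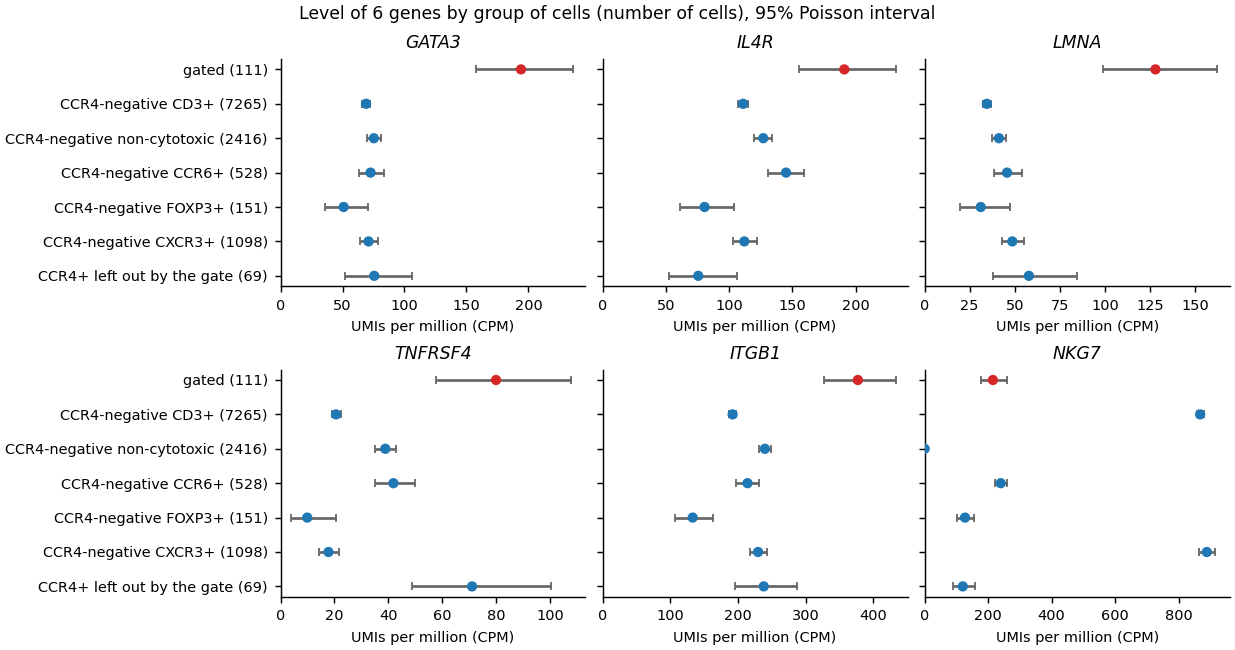
CPM (x axis) of 6 genes in the gated cells and in 6 comparison groups (y axis, number of cells in brackets), with 95% exact Poisson intervals. GATA3, LMNA and ITGB1 lie above all 6 comparison groups, and NKG7, which is 0 by definition in non-cytotoxic cells, is at 215 CPM in the gated cells against 868 CPM in CCR4-negative CD3+ cells.

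The genes highest in the gated cells, among which *GATA3* ranked 6 by the ratio of CPM + 10, were a mixed group. *LMNA*, the nuclear lamina gene that rises in memory T cells, led with 67 UMIs in 26 cells and 128 CPM (98.9 to 162) against 34.5 CPM, a log2 ratio of 1.89 (1.51 to 2.25). *TNFRSF4* (OX40), a costimulatory receptor of activated helper T cells, had 42 UMIs in 27 cells and 80.0 CPM against 20.6 CPM (1.96, 1.47 to 2.41). *DPEP2*, a membrane dipeptidase gene that takes part in leukotriene conversion, had 84 UMIs in 46 cells and 160.1 CPM against 53.1 CPM (1.59, 1.26 to 1.91). *AHR*, the aryl hydrocarbon receptor, was at 53.4 CPM against 15.7 CPM (1.76, 1.16 to 2.31), and *EGLN3*, an oxygen-sensing prolyl hydroxylase, at 68.6 CPM against 22.4 CPM. These genes were spread over many cells, since the cell with the most *LMNA* held 7 of its 67 UMIs and the one with the most *TNFRSF4* 3 of 42.

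*EVA1C* had 33 UMIs in 30 cells and 62.9 CPM against 18.2 CPM, and the transcription factor gene *KLF7* had 20 UMIs in 18 cells and 38.1 CPM against 8.64 CPM. *EVA1C* went with *GATA3* inside the gate, at 97.4 CPM in cells with *GATA3* and 32.3 CPM in cells without it (log2 ratio 1.59, 0.44 to 2.88), while *LMNA*, *TNFRSF4*, *AHR* and *KLF7* had log2 ratios between 0.13 and 0.31 with intervals across 0. *GAPDHS*, *REELD1* and the T cell receptor segment *TRAV8-6* completed the leading genes on 17, 26 and 26 UMIs. The hormone subunit gene *CGA* also ranked among them, but 16 of its 17 UMIs came from 1 cell.

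Among the 12 genes furthest below the comparison cells were 7 from killer or effector T cells. *GZMB* (granzyme B) had 80 UMIs in 11 gated cells and 152 CPM against 1275 CPM, and *NKG7* 113 UMIs in 15 cells and 215 CPM against 868 CPM. *CST7*, *KLRD1*, *KLRF1*, *CX3CR1* and the effector transcription factor gene *ZEB2* had log2 ratios of CPM + 10 between -2.46 and -1.96. No gated cell held a UMI of the receptor segment *TRBV7-3*, which had 1964 UMIs in 315 comparison cells. The inhibitory collagen receptor gene *LAIR1* was at 62.9 CPM against 262 CPM, and *EGR1*, an immediate early gene, at 9.53 CPM against 67.9 CPM. The globin genes *HBB* and *HBA* were also lower, with 0 and 4 gated UMIs, and 2650 of the 2660 *HBB* UMIs of the comparison cells lay in 2 cells.

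All 13 cytotoxic genes compared were lower in the gated cells, 12 past 2-fold (background 1.61%), with a median log2 ratio of -1.53. The comparison cells contain many cytotoxic cells: 41.9% of them held 10 or more UMIs of the 5 cytotoxic genes, against 9.01% of the gated cells (4.41 to 15.9%), and 82.0% of the gated cells held none (73.6 to 88.6%) against 33.3%. The 2416 non-cytotoxic CCR4-negative cells hold none of the 5 genes by definition. Against them the direction turned, and the 4 other cytotoxic genes compared were all higher in the gated cells, with a median of 1.0. With cytotoxic cells left out on both sides 2 such genes could be compared, and both were lower, with a median of -0.94. UMIs of the 5 genes were held by 20 gated cells, and 103 UMIs of *GZMK* came from 8 of them.

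Against non-cytotoxic cells 14 of 6468 genes were past 2-fold higher (0.216%) and 24 lower (0.371%), with a median log2 ratio of 0.06. *LMNA* and *GATA3* remained among the 5 genes furthest above, at 128 against 41.2 CPM (log2 ratio 1.63, 1.24 to 2.01) and 194 against 75.3 CPM (1.37, 1.06 to 1.67), beside *CST7*, *CGA* and *CCL4L1*. *TNFRSF4*, at 38.9 CPM in these cells, had a log2 ratio of 1.04 (0.55 to 1.5), *AHR* 1.47 (0.85 to 2.05) and *DPEP2* 0.99 (0.65 to 1.31). Furthest below were *HBB*, *HBA*, *EGR1* at 84.3 CPM, and the receptor segments *TRBV14* and *TRBV10-3*. When gated cells with cytotoxic UMIs were left out as well, 28 of 6424 genes were past 2-fold higher (0.436%) and 40 lower (0.623%), and *GATA3* was at 208 CPM (1.47, 1.13 to 1.79) and *LMNA* at 136 CPM (1.73, 1.30 to 2.13).

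All 8 naive genes compared, such as *LEF1* (175 against 104 CPM) and *CCR7* (183 against 143 CPM), were higher than in CCR4-negative CD3+ cells, with 0 past 2-fold and a median of 0.36, whereas 43.8% of all genes were higher. Against non-cytotoxic cells 8 of 9 were lower, with a median of -0.31, whereas 57.9% of all genes were higher there: *CCR7*, the lymph node homing receptor, was at 183 against 261 CPM (log2 ratio -0.51, -0.82 to -0.22). The memory list moved the other way. Against non-cytotoxic cells all 20 memory genes compared were higher, 1 of them past 2-fold, with a median of 0.54, whereas 57.9% of all genes compared were higher. With cytotoxic cells left out on both sides it was 18 of 20, with a median of 0.48 and 53.4% of all genes.

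Members of the memory list that were higher against both comparison groups included *ITGB1*, the beta 1 integrin CD29, at 377 CPM against 192 and 239.7 CPM, and *S100A6*, another gene of memory cells, at 951 CPM against 542 and 646 CPM. *ANXA5* was at 160.1 CPM against 97.2 and 101 CPM, *CAPG* at 640.2 CPM against 417 and 464 CPM, and *AHNAK* at 1082 CPM against 864 and 588 CPM. Against CCR4-negative CD3+ cells 11 of 20 memory genes were higher and 9 lower, with a median of 0.20, whereas 43.8% of all genes were higher. *S100A4*, a calcium-binding protein gene, was past 2-fold lower than in CCR4-negative CD3+ cells, at 1309 against 2957 CPM, and level with the non-cytotoxic cells, at 1212 CPM.

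**Figure D3:**
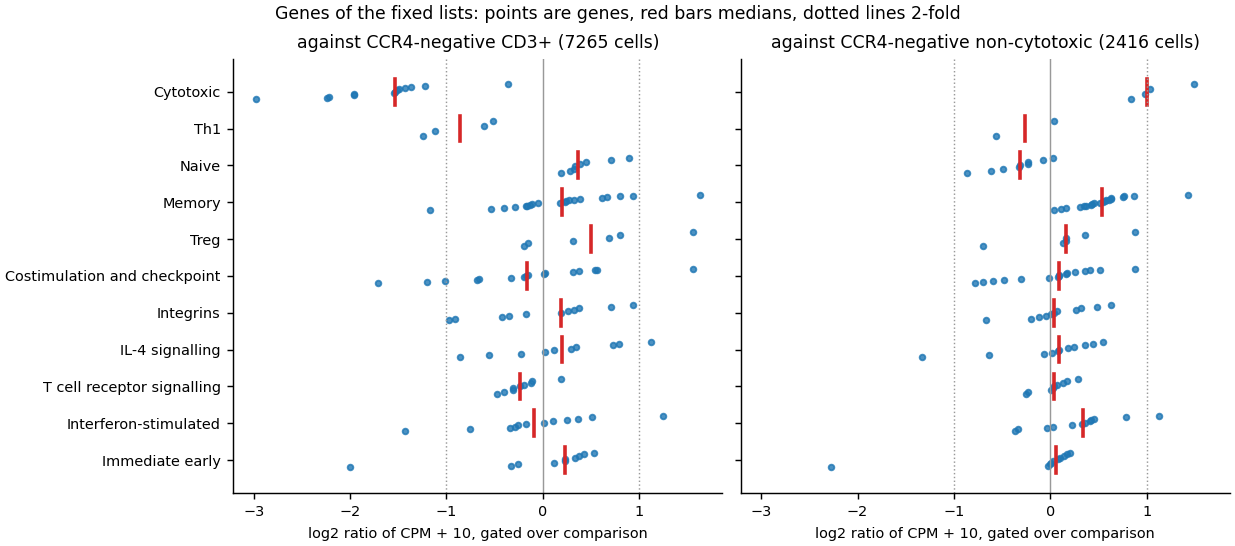
Each point is a gene of a fixed list (y axis) and shows its log2 ratio of CPM + 10, gated over comparison cells (x axis), on the left against CCR4-negative CD3+ cells and on the right against non-cytotoxic CCR4-negative cells; red bars are list medians and dotted lines mark 2-fold. The cytotoxic list is lower on the left (median -1.53) and higher on the right (1.0), where only the comparison cells were chosen without cytotoxic UMIs, and the memory list shifts from a median of 0.20 to 0.54.

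Genes of IL-4 and other cytokine signalling showed no shared step. Of 10 IL-4 signalling genes compared with CCR4-negative CD3+ cells, 7 were higher and 1 was past 2-fold, with a median of 0.20, beside 43.8% and 0.410% of all genes. The gene past 2-fold was *SOCS3*, a feedback inhibitor of JAK and STAT signalling, at 80.0 against 31.4 CPM (log2 ratio 1.35, 0.87 to 1.79), but at 56.5 CPM in non-cytotoxic cells. Against non-cytotoxic cells 8 of the 11 list genes compared were higher and 1 was past 2-fold lower, with a median of 0.09. Of all genes there 57.9% were higher and 0.371% past 2-fold lower. Against CCR4-negative CD3+ cells *JAK1* was at 253 against 298 CPM and *IL2RG*, the common gamma chain, at 301 against 449 CPM. *PTPN6* (SHP-1), a phosphatase that restrains STAT6, was at 45.7 against 90.9 CPM. Of 12 interferon-stimulated genes compared, *MX1* alone was past 2-fold higher, at 64.8 against 21.5 CPM, and *IFI27* was past 2-fold lower, at 34.3 against 109.6 CPM, beside 0.410% and 1.61% of all genes. In all 6 of the 12 were higher, with a median of -0.09 and 43.8% of all genes higher. Against non-cytotoxic cells 9 were higher, with a median of 0.34 and 57.9% of all genes higher, and *IFI27*, at 45.7 CPM there, had an interval across 0 (-0.41, -1.18 to 0.26). In the 21 cells with 2 or more *CCR4* UMIs the excess of *MX1* and of *REELD1* was absent, with log2 ratios of CPM + 10 of -0.07 and -0.23.

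Th1 genes were low. *CXCR3*, the Th1 chemokine receptor, had 7 UMIs in 6 gated cells and 13.3 CPM against 45.0 CPM in CCR4-negative CD3+ cells (log2 ratio -1.75, -3.07 to -0.71). *TBX21* (T-bet), the Th1 transcription factor, had 4 UMIs and 7.62 CPM against 28.2 CPM (-1.89, -3.77 to -0.53). All 4 Th1 genes compared were lower, 2 past 2-fold, with a median of -0.86, beside 43.8% of all genes higher and 1.61% past 2-fold lower. Of 2 compared with non-cytotoxic cells 1 was lower, with a median of -0.26. Against non-cytotoxic cells, at 24.4 CPM of *CXCR3* and 3.60 CPM of *TBX21*, both intervals crossed 0. With cytotoxic cells left out on both sides *CXCR3* was at 4.78 CPM on 2 UMIs (-2.35, -5.40 to -0.48). *CXCR3* and *TBX21* fell below the 20 UMIs set for naming a list gene, and they and other list genes below it, among them *CCR10*, *GPR15*, *RUNX3*, *SLAMF1*, *SLAMF6*, *CD8B*, *IFI27*, *NFIL3*, *IRF4*, *GFI1* and the rare Th2-associated receptors, are named with their values known.

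*CCR10*, the receptor for the skin chemokine CCL27, was among the rarely read homing receptors and had 6 UMIs in 5 gated cells (4.50%, 1.48 to 10.2%) and 24 UMIs in 20 of the 7265 CCR4-negative cells (0.275%, 0.168 to 0.425%). Its log2 ratio of CPM was 3.81 (2.23 to 5.14), and 2.71 (1.09 to 4.10) against non-cytotoxic cells. *GPR15*, a receptor for homing to gut and skin, had 11 UMIs in 9 cells (21.0 against 5.49 CPM), but in the 21 cells with 2 or more *CCR4* UMIs its log2 ratio of CPM + 10 turned from 1.0 to -0.63. The CCR4+ cells left out by the rule held both receptors in similar shares, *CCR10* in 4.35% (0.906 to 12.2%) and *GPR15* in 10.1% (4.18 to 19.8%) against 8.11% of the gated cells (3.77 to 14.8%). *CXCR6* had 0 UMIs, which allows up to 5.72 CPM, against 9.59 CPM in CCR4-negative CD3+ cells. *CXCR4* was at 236 against 327 CPM, and *SELPLG*, which encodes the protein that bears the skin-homing selectin ligand, at 162 against 182 CPM. The beta 2 integrin pair *ITGAL* and *ITGB2* was lower than in CCR4-negative CD3+ cells, at 68.6 against 144 CPM and 156 against 302 CPM, but not than in non-cytotoxic cells.

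Of 16 costimulatory and inhibitory receptors compared with CCR4-negative CD3+ cells, *TNFRSF4* was past 2-fold higher and *PDCD1*, *SLAMF1* and *SLAMF6* past 2-fold lower, beside 0.410% and 1.61% of all genes. In all 7 of the 16 were higher and 9 lower, with a median of -0.16, which is the same 43.8% as among all genes. Against non-cytotoxic cells 10 of 16 were higher and none was past 2-fold, with a median of 0.09, beside 57.9% of all genes higher. With cytotoxic cells left out on both sides 7 of 15 were higher, 1 of them past 2-fold, with a median of -0.05, beside 53.4% of all genes. Against CCR4-negative CD3+ cells *CD28* was at 80.0 against 51.0 CPM and *TNFRSF25* at 68.6 against 44.1 CPM, while *PDCD1* (PD-1) was at 51.4 against 132 CPM. For *PDCD1* the direction turned against non-cytotoxic cells, at 36.2 CPM. Of 6 regulatory T cell genes compared 4 were higher, with *TNFRSF4* past 2-fold and a median of 0.50, and of 5 follicular helper genes 3 were lower, with *PDCD1* past 2-fold and a median of -0.68, beside 43.8% of all genes higher in the same comparison. Against non-cytotoxic cells 5 of 6 regulatory genes (median 0.16) and 4 of 5 follicular genes (median 0.17) were higher, none past 2-fold, beside 57.9% of all genes, so the follicular list turned direction. With cytotoxic cells left out on both sides 3 of its 5 genes were lower (median -0.50), beside 53.4% of all genes higher. Of 9 T cell receptor signalling genes 8 were lower and none was past 2-fold, with a median of -0.24, beside 43.8% of all genes higher. Against non-cytotoxic cells 7 of 9 were higher, with a median of 0.04 and 57.9% of all genes higher. There *LCK* was at 257 against 252 CPM. *CD3E*, at 1240.5 against 1265 CPM, is a gene of the rule and not among the 9. With cytotoxic cells left out on both sides 7 of the 9 were lower again, with a median of -0.11, beside 53.4% of all genes higher.

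The cells set apart by other receptors differed from the gated cells in their own ways. Against the 528 CCR6+ cells, 16 of 6599 genes were past 2-fold higher (0.242%) and 67 lower (1.02%): *KLRB1* (CD161) was at 45.7 against 129 CPM, *RORA* at 89.6 against 155 CPM and *CSF1* at 3.81 CPM on 2 UMIs against 154 UMIs in the CCR6+ cells. *AHR*, at 36.5 CPM in CCR6+ cells, did not differ beyond counting error (0.55, -0.11 to 1.16). Against the 151 FOXP3+ cells, 138 of 6423 genes were past 2-fold higher (2.15%) and 96 lower (1.49%). *EVA1C* had 33 gated UMIs against 1 there, *TNFRSF4* was at 80.0 against 9.90 CPM, and *IL7R* at 1379.5 against 444 CPM. Against the 1098 CXCR3+ cells, 49 of 6606 genes were higher (0.742%) and 130 lower (1.97%), led by *EGLN3*, *KLF7* and *TNFRSF4* above and *GZMB*, *KLRF1* and *ZEB2* below.

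The 48 gated cells with *GATA3* were set beside the 581 non-cytotoxic CCR4-negative cells with *GATA3*, and 62 of 6459 genes were past 2-fold higher (0.960%) and 113 lower (1.75%). The groups also differ by definition, since the gated cells lack *FOXP3*, *CCR6*, *CCR9* and *CXCL13* and 39 of the 48 held no cytotoxic UMI, whereas all 581 were chosen for holding none, and 5 of 5 cytotoxic genes compared were higher, beside 53.8% of all genes. These differences and *CCR4* itself cannot be told apart here. *IL4R* was at 276 against 152 CPM (log2 ratio 0.86, 0.47 to 1.24), *LMNA* at 134 against 52.4 CPM (1.36, 0.76 to 1.91), *EVA1C* at 97.4 against 36.8 CPM (1.40, 0.70 to 2.06) and *AHNAK* at 1263 against 685 CPM (0.88, 0.70 to 1.06). *GATA3* itself, of which both groups hold at least 1 UMI per cell by definition, was at 414 against 279.8 CPM. *CCR7* was lower at 146 against 209.8 CPM (-0.52, -1.05 to -0.03), and *LEF1* was at 158 CPM in both. *CXCR3* did not differ beyond counting error here, at 24.4 against 25.3 CPM on 6 gated UMIs.

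Set beside the 69 CCR4+ cells left out by the rule, the gated cells had 73 of 6685 genes past 2-fold higher (1.09%) and 241 lower (3.61%) than these, which were deeper, with a median of 5475 UMIs. Such counts rise with the counting error of small groups and are no measure of distance. *IL4R* was at 191 against 75.6 CPM (log2 ratio 1.33, 0.76 to 1.94) and *LMNA* at 128 against 57.8 CPM (1.14, 0.47 to 1.86). *CD8A* was at 103 against 280.1 CPM (-1.44, -1.93 to -0.97) and *CXCR3* at 13.3 against 51.1 CPM (-1.94, -3.40 to -0.67). *TNFRSF4* and *AHR*, both high in the gated cells, were as high in the cells left out, at 71.1 and 60.0 CPM, with log2 ratios of 0.17 (-0.53 to 0.88) and -0.17 (-0.99 to 0.65). *DPEP2* was held by 39.1% of them (27.6 to 51.6%) and by 41.4% of the gated cells (32.2 to 51.2%).

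On the surface the gated cells were clearly CD4+, and their CD8 FB divided them. As background of each tag served the value below which 90% of the 86 B gene cells lay, which was 191 CD4 FB and 330.5 CD8 FB UMIs. The gated cells had a median CD4 FB of 451 UMIs per cell (quartiles 354 to 551) and a median CD8 FB of 312 (189.5 to 612, range 50 to 2180), while the CCR4-negative CD3+ cells had medians of 382 and 339. Of the gated cells 96.4% were above the CD4 background (91.0 to 99.0%) and 46.8% above both (37.3 to 56.6%), against 93.1% and 48.5% of the comparison cells. A further 49.5% were above CD4 alone, 0 of 111 above CD8 alone, which allows up to 3.27%, and 3.60% above neither. By this measure 52 of the 111 cells were double-positive, and the share was close to that of the DP T cells they came from.

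The share above both backgrounds differed between kinds of cells more than between the gated cells and the rest. It was 70.3% in CCR6+ cells (66.2 to 74.1%), 51.3% in CXCR3+ cells (48.3 to 54.3%) and 30.5% in FOXP3+ cells (23.2 to 38.5%), and 66.7% in the CCR4+ cells left out (54.3 to 77.6%). Tag counts were not scaled to depth. Median RNA UMIs were 4882 in CCR6+ cells, 5475 in the cells left out, 3995 in CXCR3+ and 4140 in FOXP3+ cells, and the part of depth was not tested. Inside the gate the share was 45.8% in cells with *GATA3* and 47.6% in cells without. Coreceptor RNA was lower: *CD8A* was at 103 CPM against 173 CPM in CCR4-negative CD3+ cells (log2 ratio -0.75, -1.16 to -0.36) and 154 CPM in non-cytotoxic cells, and *CD4* at 137 against 176 CPM (-0.36, -0.72 to -0.02). *CD8B* had 3 UMIs. *RUNX3*, the transcription factor of CD8 T cells, was at 24.8 against 101 CPM but at 25.2 CPM in non-cytotoxic cells.

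**Figure D4:**
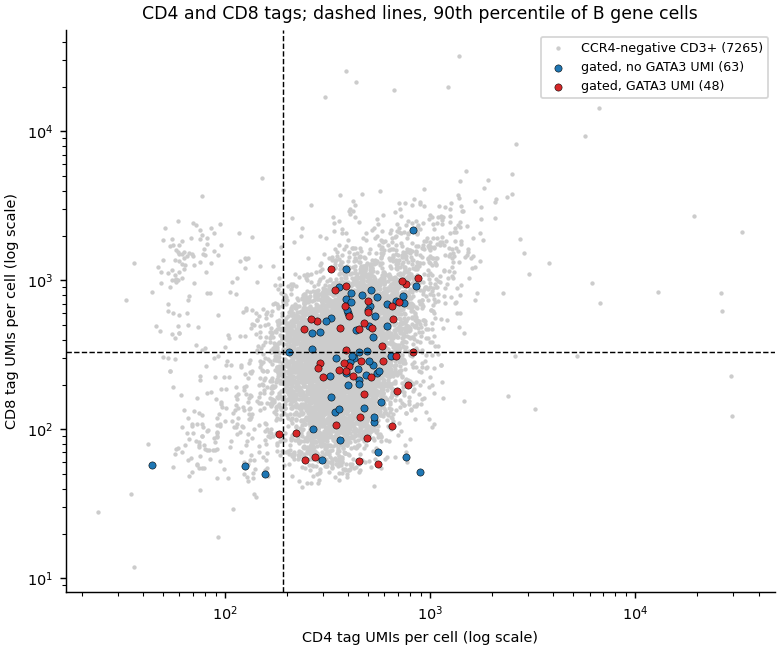
CD4 FB (x axis) and CD8 FB (y axis) UMIs per cell, both on log scales, with each gated cell as a large point, red with and blue without a GATA3 UMI, and CCR4-negative CD3+ cells in grey; dashed lines mark the background set from B gene cells. 52 of 111 gated cells lie above both lines, 55 above the CD4 line alone and none above the CD8 line alone.

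Inside the gate 2 further splits were examined. Between the 48 cells with and 63 without *GATA3*, 234 of 6325 genes were past 2-fold higher (3.70%) and 260 lower (4.11%) among groups of few cells. The class II gene *MAMU-DRA* had 3 UMIs in 2 cells against 63 in 6 cells, and *AIG1* 11 UMIs in 9 cells against 0. The 7 B cell genes summed to 0 against 45 UMIs, and only 1 of the 63 cells without *GATA3* held 3 or more UMIs of them. *CCR4* itself was level, at 259.8 and 262 CPM. Between the 52 cells above and 59 at or below the CD8 FB background, 334 of 6323 genes were past 2-fold higher (5.28%) and 192 lower (3.04%). The leading gene on the lower side, *GZMK*, had 2 UMIs above the background and 101 UMIs in 6 cells below it.

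The 7 B cell genes summed to 45 UMIs (85.7 against 105 CPM), of which *MS4A1* gave 16 in 1 cell, and none lay in a cell with *GATA3*. Monocyte and platelet genes had 1 UMI each, and NK cell genes 3, all of *KLRF1*, with 0 of *NCAM1* and *NCR1*. Of the 5 basophil and mast cell genes, cells that also carry several Th2-associated receptors, *MS4A2* had 3 UMIs in 3 cells, all with *GATA3*, and *GATA2*, *FCER1A*, *HDC* and *CPA3* were at 0. The sum of the 5 was 5.72 CPM on these 3 UMIs, against 0.203 CPM on 6 UMIs in the CCR4-negative CD3+ cells, so it moved with *GATA3* and the rare receptors, and its part in those results was not tested. Cycling genes were at 128 against 174 CPM in CCR4-negative CD3+ cells, but at 114 CPM in non-cytotoxic cells. By doublet score, 4.50% of gated cells lay above the 95th percentile against 3.76% of CCR4-negative CD3+ cells. The count of called doublets, 0 among the 7601 cells, could also stand for calls that were not made, so nothing is read from it.

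When all kept cells were clustered without the genes of the rule, the gated cells did not form a cluster of their own. Of 13 clusters, 1 (1535 cells, led by *DSE*, *TNFSF13B* and *EVA1C*) held 48 of them and another (1001 cells, led by *PLK2*, *OTUD5* and *CTSL*) held 46. Together these were 84.7% of the gated cells (76.6 to 90.8%) and 32.7% of the CCR4-negative CD3+ cells. The second of these clusters also held 42 of the 69 CCR4+ cells left out. 7 clusters with 3327 cells held no gated cell, among them the cluster led by *GZMB* and *CX3CR1*. Gated cells were 4.13% of the nearest neighbours of gated cells and 1.46% of kept cells. No cell type name was given to the clusters.

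Within those 2 clusters the gated cells were again set beside CCR4-negative cells (94 against 2375). The gated cells were split 48 and 46 over clusters 1 and 2 and the others 1469 and 906, so pooled values mix the clusters in unlike proportions. *GATA3* was at 213 against 80.7 CPM (log2 ratio 1.40, 1.07 to 1.71), *LMNA* at 132 against 39.3 CPM (1.75, 1.33 to 2.15) and *TNFRSF4* at 88.0 against 41.0 CPM (1.10, 0.59 to 1.58). *IL4R* was at 204 against 131 CPM (0.63, 0.31 to 0.95) and *ITGB1* at 394 against 223 CPM (0.82, 0.59 to 1.04). In each cluster alone the intervals of *GATA3* (1.03 to 1.85 and 0.91 to 1.96), *LMNA* (1.38 to 2.34 and 0.96 to 2.66) and *IL4R* (0.17 to 0.98 and 0.44 to 1.52) lay above 0. *ITGB1* and *TNFRSF4* were higher beyond counting error in cluster 1, at 1.24 (0.94 to 1.52) and 1.42 (0.78 to 2.0), but in cluster 2 their intervals crossed 0, at 0.26 (-0.12 to 0.62) and 0.64 (-0.34 to 1.48). The memory genes *S100A6*, *CAPG* and *ANXA5* were likewise higher beyond counting error in cluster 1, at 0.50, 0.60 and 0.76, and their intervals crossed 0 in cluster 2, at 0.20, 0.15 and 0.35. *S100A4* went the other way in cluster 2, at 403 against 828 CPM (-1.04, -1.37 to -0.73), and was slightly higher in cluster 1 (0.17, 0.03 to 0.30) and lower over both (-0.20, -0.33 to -0.08). Over both clusters *CXCR3* was lower, at 6.95 against 32.2 CPM (-2.21, -4.50 to -0.66), and *CD8A* too, at 102 against 181 CPM (-0.83, -1.30 to -0.40), while in cluster 1 alone both intervals crossed 0 (-3.77 to 0.08 and -1.13 to 0.05). *LEF1* was higher in cluster 1 (0.62, 0.13 to 1.07) and level in cluster 2 (-0.01, -0.46 to 0.40). For *CCR7* the intervals crossed 0 in each cluster, and *IL7R* was lower in cluster 1 (-0.20, -0.36 to -0.04) and higher in cluster 2 (0.30, 0.13 to 0.47). All gated UMIs of *CCR10* (6), *PTGDR2* (3) and *IL1RL1* (4) lay in cluster 1. None of the 46 gated cells of cluster 2 held these genes, which allows a share of up to 7.71% for each. *CRLF2* had 2 gated UMIs in cluster 1 and 1 in cluster 2. These clusters were made from the same RNA, so the values describe the cells and are no independent check.

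**Figure D5:**
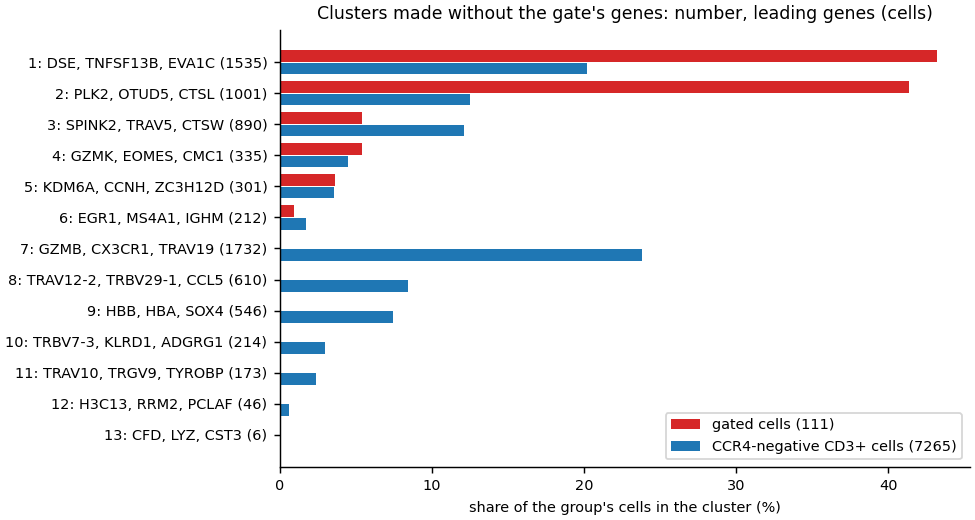
Percent of the gated cells (red) and of the CCR4-negative CD3+ cells (blue) that fell in each of 13 clusters (y axis, with leading genes and number of cells) made without the genes of the rule. Clusters 1 and 2 hold 43.2% and 41.4% of the gated cells against 20.2% and 12.5% of the others.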

How the data were processed

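Per the labels, the authors prepared a 5′ gene expression library and a CD4 and CD8 tag library from DP T cells of 1 rhesus monkey. The submitters' processing notes name Cell Ranger 3.1.0, STAR 2.5.1b and the Mmul_10 build. The annotation release was not given in the sources used here. The deposited values are UMI counts per gene or tag and barcode, with no normalization, for 7923 distinct barcodes and 35432 genes (32297887 gene UMIs, 3533968 CD4 tags and 3868998 CD8 tags). Other deposited columns hold gene names, tag names and barcodes.

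Cells were kept (7601, median 3636 UMIs) if they had from 200 to 4000 genes and no more than 20% of UMIs from mitochondrial features. The features counted as mitochondrial were the 13 named genes and 2 without a symbol. Counts were summed over the cells of each group. CPM intervals are exact Poisson intervals and shares have exact Clopper-Pearson intervals (95%). Log2 ratios of CPM carry exact intervals from the binomial split of both counts. Fold counts used the ratio of CPM + 10 for genes with a mean of at least 10 CPM. PCR duplicates were removed by UMI, but all intervals cover counting error only. Cells with 3 or more UMIs of 7 B cell genes and no CD3 UMI gave the tag background. Doublets were scored and not removed. The ratio step was tested on simulated data. Clustering used 2000 variable genes, 15 components, 20 neighbours and resolution 0.8. Clusters came from scanpy 1.11.5 with igraph 0.11.9, sums and intervals from pandas 2.3.3, scipy 1.17.1 and numpy 2.4.6 in Python 3.11.15, and figures from matplotlib 3.10.9. Positions come from the annotation of Mmul_10.

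Genes named were the 4 markers CCR4, GATA3, IL4R and PTGDR2, members of fixed lists with at least 20 gated UMIs or a 0 that bears on the label, the 12 highest and 12 lowest genes of the main comparison and the 5 each way of the other comparisons. The rule, the lists and the cells were chosen with earlier results of these data known. Of the list genes, GZMH, HBA2, LILRA4, IL32, FUT4, S1PR4, LGALS1, CD27 and IER2 matched no feature name.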

Additional observations from a re-analysis of the deposited data

How the results depend on the processing

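Without replicates no result has a test, so stability here means only that a value moved little. No paired analysis was possible because the series has 1 animal and the result comes from no test. The count of genes past 2-fold, 27 higher and 106 lower, depended on most settings. It was 14 and 24 against non-cytotoxic cells, 350 and 514 with at least 2 CCR4 UMIs (21 cells), 100 and 287 with cells thinned to 2000 UMIs, 116 and 265 with a pseudocount of 1 CPM, 3 and 23 with 50 CPM, and 60 and 170 among cells above both tag backgrounds. It was 207 and 447 at 1.5-fold, 64 higher as a mean over cells, and 40 lower with non-cytotoxic cells in both groups, an alternative chosen after seeing the data. Depth-matched comparison cells, a 10% mitochondrial limit, the 13 named mitochondrial genes alone, removal of cells above the 95th percentile of doublet scores, no minimum level and the exclusion genes applied to the comparison cells kept both counts within 1.5 times.

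The gated share of CD3+ cells, 1.49%, was 0.922% after thinning, 0.282% with at least 2 CCR4 UMIs and 2.42% without the exclusion genes. The share above both tags, 46.8%, was 34.2% with the 95th percentile as background. The share with GATA3, 43.2%, was 25% in the 64 cells gated after thinning and 57.1% with at least 2 CCR4 UMIs. The median CD8 tag stayed between 289 and 312 UMIs under the settings it was recomputed for, and was 329 in the 91 gated cells without cytotoxic UMIs.

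Of 707 values for 55 named genes under these settings, 515 stayed within the counting interval, 179 moved and 13, of genes past 2-fold, turned sign. Against non-cytotoxic cells the log2 ratio of CPM + 10 turned to 0.31 for ZEB2, 0.52 for KLRF1, 0.66 for KLRD1, 1.49 for CST7, 0.88 for CX3CR1, 0.11 for S100A4, 0.26 for KLRB1, 0.41 for PDCD1 and 1.03 for GNLY, the comparison cells being chosen without cytotoxic genes. It was -0.23 for REELD1 and -0.07 for MX1 with at least 2 CCR4 UMIs, and 0.06 for ZEB2 and 0.43 for KLRB1 with non-cytotoxic cells in both groups. Genes within 2-fold that also turned sign, among the moved values, included CCR7 (-0.49), LEF1 (-0.23), TCF7 (-0.23) and ITGB2 (0.32) against non-cytotoxic cells, GPR15 (-0.63) with at least 2 CCR4 UMIs and CD28 (-0.04) after thinning.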
